A study of Homo sapiens with 16 samples.

Results

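The 9 genes described here build or anchor the tight junction of epithelial cells. They are the claudins CLDN1, CLDN2, CLDN3, CLDN4, CLDN7 and CLDN12, the membrane proteins OCLN and F11R and the scaffold TJP1. They form a set given by name and found by their GENCODE symbol, and all 9 were among the 66023 genes of the count table. The set was drawn up with earlier results of these data known, although no measured value enters its definition. All 9 also passed the filter on low counts across the 16 samples. RNA-seq was carried out on 6 lines of SW480, an established human colon adenocarcinoma cell line, to ask how the level of Ajuba alters the transcriptome. Ajuba is a LIM domain protein that acts at cell junctions and in Hippo signalling.

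Parental cells were not modified (n = 2). The shScrambled line carried a non-mammalian control shRNA (n = 2), shAjuba1 an shRNA against the coding region of Ajuba (n = 3) and shAjuba2 an shRNA against a non-coding region (n = 3). Ajuba OE carried a lentiviral Ajuba construct under a CMV promoter (n = 3), and Control carried the same construct with the Ajuba sequence removed (n = 3). The 5 modified lines were made by lentiviral transduction and selected with 1.5 μg/mL puromycin, which Parental cells did not receive, and all lines were used between passages 10 and 18. Each line stands for 1 transduction as far as the sources used here tell, and the study calls its replicates technical. The p-values below therefore measure the spread between samples of 1 line and do not cover the spread between independent transductions.

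A tight junction is a belt of strands near the top of the lateral membrane. Claudins polymerise into the strands and set which ions and solutes pass between cells, some as sealing claudins and others as pores. Occludin and the junctional adhesion molecules lie along the same belt, and the ZO proteins tie the claudin tails to the actin cytoskeleton. In the colon these proteins keep the contents of the gut apart from the tissue, and several claudins change in level in colon tumours.

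The values are read counts per gene. RPM gives the counts of a gene per 1000000 counts in its sample, and RPM per kb is RPM over the length of the merged exons in kb. The totals ran from 30132396 to 69684675 counts per sample. AJUBA, the targeted gene, stood at 83.4 and 81.6 RPM in shScrambled, at 47.3 to 53.5 RPM in shAjuba1 and at 57.1 to 68.6 RPM in shAjuba2. It stood at 89.4 to 100.5 RPM in Control and at 461.8 to 566.2 RPM in Ajuba OE, where reads of the construct are counted with those of the endogenous gene. The order of the lines followed their labels, and neither knockdown line overlapped with shScrambled. Against shScrambled AJUBA fell in shAjuba1 (log2 fold change -0.73, SE 0.083, edgeR adjusted p = 2.19e-05), whereas in shAjuba2 the change did not pass the test with all 3 samples (-0.46, SE 0.131, adjusted p = 0.0773). It passed without replicate 2 of shAjuba2 (-0.55, SE 0.093, edgeR adjusted p = 0.000481) and with Parental as the control (-0.60, SE 0.126, adjusted p = 0.0364). AJUBA rose in Ajuba OE against Control (2.56, SE 0.115, edgeR adjusted p = 7.69e-05), and by 2.69 (SE 0.103, adjusted p = 2.38e-06) with replicate 2 of both lines left out.

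Replicate 2 of shAjuba2, of Control and of Ajuba OE stood apart from the other samples of its line. It was the lowest of its line for 8 of the 9 genes in each of these lines, with a median log2 deviation of -0.52, -0.33 and -0.36 from the other replicates. In the same samples 21.2%, 18.5% and 21.2% of all counts came from the mitochondrial chromosome, against 9.66% to 14.9% in the other replicates of these lines. The part of this in the results was not tested. For the 9 genes the comparisons of shAjuba2 with shScrambled and of Ajuba OE with Control are given below with and without these samples. The fold changes and counts for the other tight junction genes and the transcription factors include them. Of 10 markers of colon epithelium 7 had a mean of at least 1 RPM, KRT8 the highest among them, whereas KRT20, CDX1 and LGALS4 stayed below 1 RPM. The 10 summed to 6091 to 6607 RPM in Parental, 4063 to 4204 in shScrambled, 4996 to 5205 in shAjuba1 and 2901 to 5495 in shAjuba2. In Control they summed to 4852 to 5968 RPM and in Ajuba OE to 5755 to 7009 RPM. Of 5 markers each of fibroblasts, endothelium and leukocytes, 2, 1 and 2 had a mean of at least 1 RPM, and DCN, CDH5, KDR and PTPRC stayed below 0.1 RPM in every sample. The leukocyte markers summed to 2.96 to 3.02 RPM in shScrambled, 5.05 to 6.32 RPM in shAjuba1 and 1.98 to 2.57 RPM in shAjuba2. The endothelial markers summed to 5.21 to 5.62 RPM in shScrambled and to 2.49 to 3.37 and 2.45 to 3.02 RPM in the knockdown lines. The fibroblast markers summed to 22.4 to 22.7 RPM in shScrambled, 18.1 to 22.6 RPM in shAjuba1 and 24.9 to 37.6 RPM in shAjuba2, and to 15.5 to 24.5 RPM in Control and 6.21 to 10.4 RPM in Ajuba OE. In Control the leukocyte and endothelial sums (2.53 to 3.35 and 2.505 to 3.02 RPM) overlapped with those of Ajuba OE (2.84 to 3.20 and 2.83 to 3.06 RPM). The part of these markers in the results was not tested.

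Per exon length CLDN7 had the highest mean of the 9 genes over the 16 samples, at 26.4 ± 14.3 RPM per kb (SD, n = 16). CLDN4 followed at 22.3 ± 5.02, TJP1 at 17.6 ± 2.03, CLDN1 at 10.1 ± 3.91 and CLDN12 at 9.82 ± 2.12 RPM per kb. CLDN3 stood at 4.24 ± 1.86, F11R at 3.73 ± 1.04 and OCLN at 1.46 ± 0.374 RPM per kb. CLDN2 was the lowest at 0.145 ± 0.0600 RPM per kb, from 10 to 66 counts per sample. Not every step in this order was firm. By the median over the 16 samples CLDN4 (22.01 RPM per kb) and CLDN7 (21.95) were nearly level. In shAjuba1 the means of CLDN4 (21.8) and TJP1 (15.3) exceeded that of CLDN7 (11.6 RPM per kb), as they did in shAjuba2 (17.2, 16.9 and 16.5 RPM per kb). CLDN7 was above CLDN4 in 10 of 16 samples, CLDN1 above CLDN12 in 7 of 16 and CLDN3 above F11R in 8 of 16. In contrast TJP1 was above CLDN1, F11R above OCLN and OCLN above CLDN2 in all 16 samples.

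**Figure D1:**
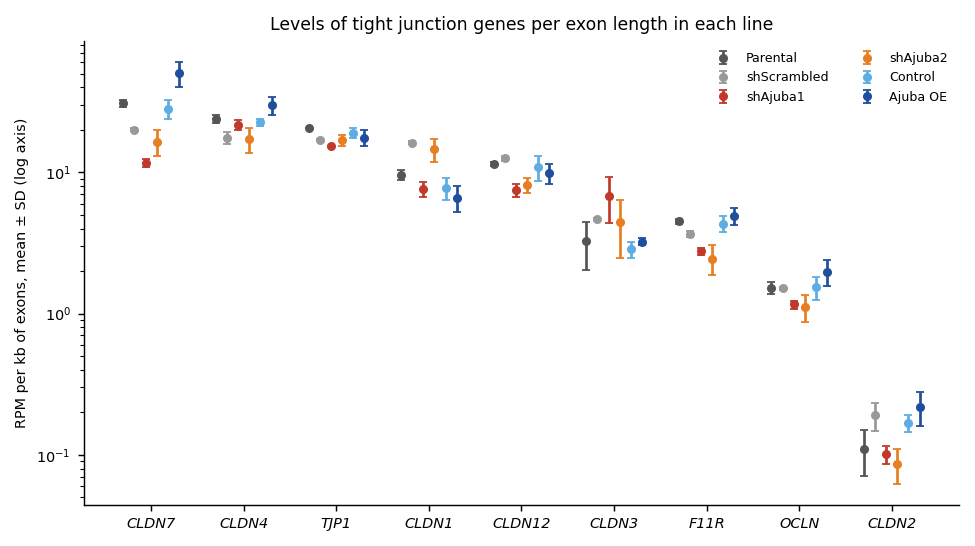
RPM per kb of merged exons on a log axis, with 1 point for the mean of each of the 6 lines and bars for the SD (n = 2 or 3), genes ordered by their mean over 16 samples. The points of CLDN7 spread most widely, from 11.6 in shAjuba1 to 50.3 in Ajuba OE, whereas those of TJP1 lie close together and CLDN2 lies far below the other genes.

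The genes differed in how far the lines moved them. The mean of the highest line was 4.32 times that of the lowest for CLDN7, 2.54 times for CLDN2, 2.45 times for CLDN1 and 2.38 times for CLDN3. For F11R, OCLN, CLDN4 and CLDN12 this ratio was 1.99, 1.77, 1.74 and 1.67, and for TJP1 it was 1.34. Across all 6 lines 9 of the 9 genes were called by edgeR's quasi-likelihood F test at an adjusted p under 0.05, where 45.7% of all genes tested were called. The smallest adjusted p was that of CLDN7 (4.51e-07) and the largest those of TJP1 (0.0200) and CLDN3 (0.0220). TJP1 was no longer called when either Parental sample (adjusted p = 0.0709 and 0.0676 without replicate 1 and 2) or any shAjuba1 sample (0.0602 to 0.0644) was left out. CLDN3 was not called without replicate 3 of shAjuba1 (0.104).

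**Figure D2:**
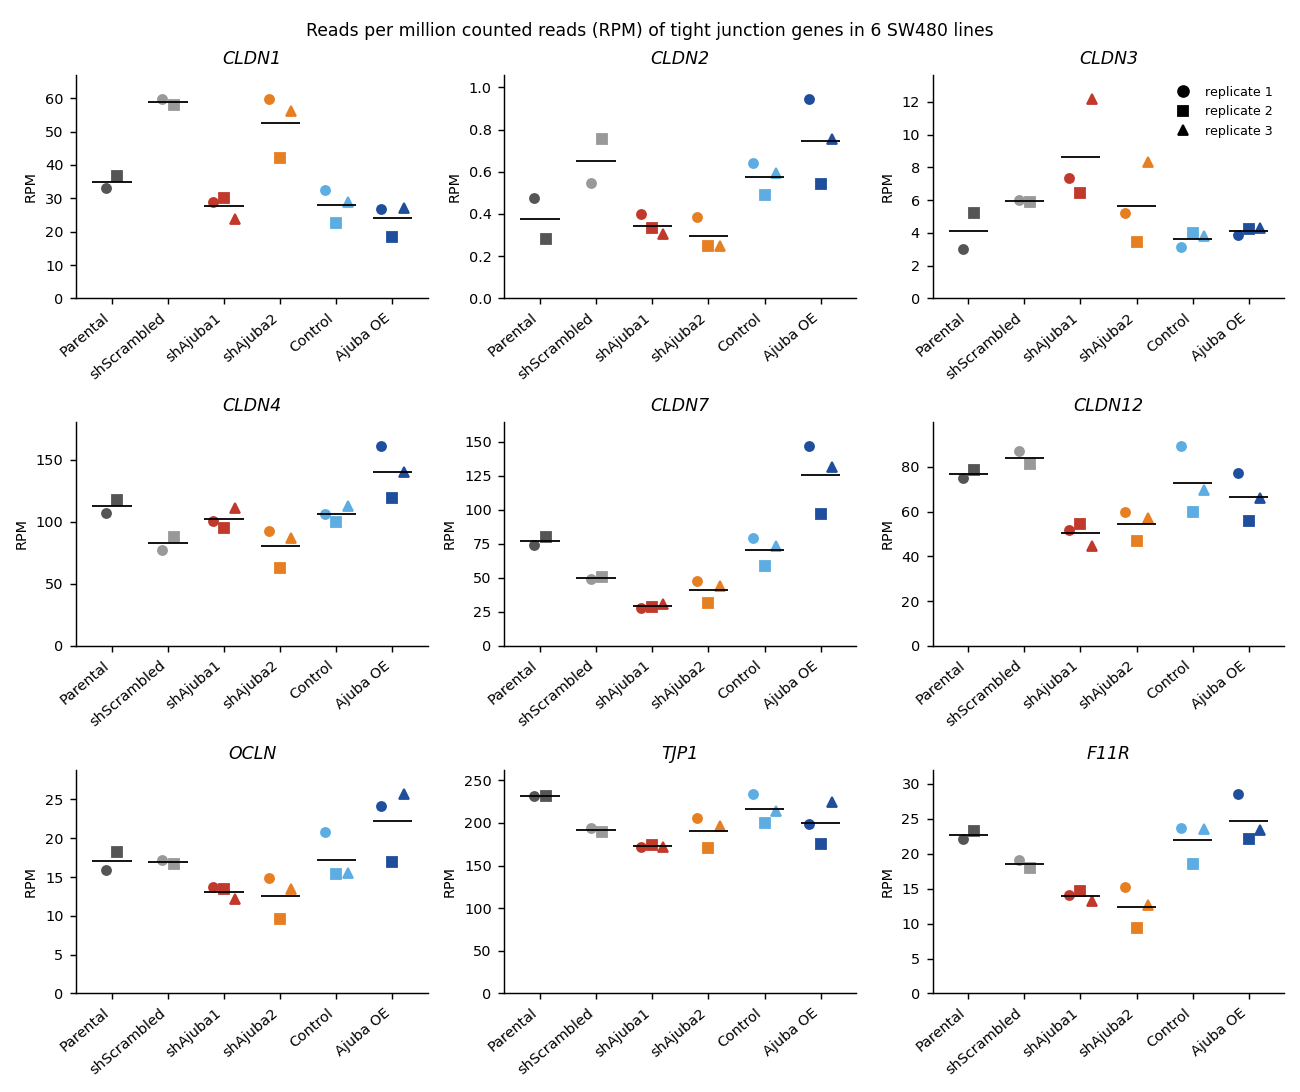
RPM of each gene in every sample, with marker shape for the replicate number and a black line for the mean of the line (n = 2 or 3). CLDN7 runs from 27.7 RPM in shAjuba1 to 147.0 RPM in Ajuba OE, and the squares of shAjuba2, Control and Ajuba OE, which mark replicate 2, lie lowest in most panels.

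CLDN7 is a claudin of the lateral membrane of intestinal epithelium. Its gene lies on chromosome 17 from 7259903 to 7263983 on the minus strand (hg38). It stood at 74.0 and 79.9 RPM in Parental, at 49.2 and 50.7 RPM in shScrambled, at 27.7, 28.5 and 30.9 RPM in shAjuba1 and at 47.8, 31.5 and 44.1 RPM in shAjuba2. In the overexpression pair it stood at 79.1, 58.7 and 73.2 RPM in Control and at 147.0, 97.1 and 131.9 RPM in Ajuba OE. No knockdown sample reached the lower of the shScrambled values, and the lowest Ajuba OE sample exceeded the highest sample of any other line. CLDN7 fell in shAjuba1 by 0.80 on the log2 scale (SE 0.087, edgeR adjusted p = 1.51e-05) and was called in all 12 alternatives, Parental as the control among them. In shAjuba2 its log2 fold change was -0.33 (SE 0.171, edgeR adjusted p = 0.264), or -0.18 (SE 0.096, adjusted p = 0.191) without replicate 2. It rose in Ajuba OE by a log2 fold change of 0.89 (SE 0.169, edgeR adjusted p = 0.0254), and with replicate 2 of both lines left out by 0.92 (SE 0.099, adjusted p = 0.000698).

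The call of CLDN7 in Ajuba OE rested on single samples, while its size did not. With Control replicate 1, 2 or 3 left out the log2 fold change was 0.99, 0.78 and 0.92 and the edgeR adjusted p 0.0526, 0.0543 and 0.112. With Ajuba OE replicate 1 or 3 left out it was 0.79 and 0.86 (adjusted p = 0.0885 and 0.116). Against Parental in place of Control it was 0.75 (SE 0.172, edgeR adjusted p = 0.0429).

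Factors of the SNAI and ZEB families, which repress epithelial genes, bind the E-box with the letters CAGGTG, or CACCTG on the other strand, so the bases before the RefSeq starts of the 9 genes were searched for both. RefSeq windows of 250 bases (GRCh38.p14) were found for 8 of the 9 genes, with 14 windows in all, and none was found for F11R. An E-box was present in 4 of the 14 windows, against 17.5% of the 35116 windows of all genes. The second CLDN7 window, on chromosome 17 from 7262479 to 7262728 on the minus strand, held 4 of them, and 0.464% of all windows held 3 or more. All matches are shown with their flanks to compare the 3 genes that hold them, and capitals mark the E-box.
CLDN7, 174 bases before the start: ttcctcctCACCTGggcaagga
CLDN7, 135 bases before the start: ttccggttCAGGTGagtgtccc
CLDN7, 20 and 9 bases before the start: tatactCAGGTGcgcccCACCTGtccgcc
OCLN, first start, 33 bases before: ccgagtttCAGGTGaattggtc
OCLN, second start, 133 bases before: ggacgcagCAGGTGggactcgc
TJP1, first start, 88 bases before: ccggcgcgCAGGTGgcccggcc
No window of CLDN1, CLDN2, CLDN3, CLDN4 or CLDN12 held these letters. In shAjuba1 against shScrambled CLDN7 and OCLN, with matches, were called lower and TJP1, also with a match, was not called, whereas CLDN1, CLDN2 and CLDN12, with no match, were called lower as well. The letters CATTCC or GGAATG, bound by the TEAD partners of YAP, were in none of the 14 windows and in 11.9% of all windows. A match says only that the letters are present, and its use in these cells was not measured. The second CLDN7 window lies inside the GENCODE bounds of the gene (7259903 to 7263983), and the lines with 1 match each are flanked by 8 bases on either side.

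CLDN4, a sealing claudin and a receptor of Clostridium perfringens enterotoxin, lies on chromosome 7 from 73799542 to 73832690. It stood at 107.1 and 117.9 RPM in Parental, at 77.1 and 88.1 RPM in shScrambled, at 100.9, 95.1 and 111.2 RPM in shAjuba1 and at 92.6, 62.5 and 87.1 RPM in shAjuba2. In Control it stood at 106.0, 99.9 and 113.0 RPM and in Ajuba OE at 161.2, 119.3 and 139.9 RPM. The Ajuba OE samples were all above the Control samples, and the shAjuba1 samples were above shScrambled but not above both Parental samples. CLDN4 was the 1 gene of the 9 called higher in shAjuba1, by a log2 fold change of 0.29 (SE 0.091, edgeR adjusted p = 0.0225). The call was lost without shScrambled replicate 1 (0.22, adjusted p = 0.217) and without shAjuba1 replicate 1 (0.30, adjusted p = 0.0685), and against Parental the sign turned (-0.17, SE 0.086, edgeR adjusted p = 0.149). In shAjuba2 the log2 fold change was -0.08 (SE 0.173, edgeR adjusted p = 0.792), or 0.06 (SE 0.10, adjusted p = 0.729) without replicate 2. In Ajuba OE it was 0.46 (SE 0.116, edgeR adjusted p = 0.0715), and 0.50 (SE 0.10, adjusted p = 0.0165) with replicate 2 of both lines left out.

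CLDN3, the neighbour of CLDN4 on chromosome 7 (73768997 to 73770270, minus strand) and a receptor of the same toxin, was much lower. It stood at 3.04 and 5.22 RPM in Parental, at 6.01 and 5.86 RPM in shScrambled, at 7.35, 6.40 and 12.2 RPM in shAjuba1 and at 5.22, 3.42 and 8.33 RPM in shAjuba2. It stood at 3.12, 4.0 and 3.80 RPM in Control and at 3.86, 4.21 and 4.3 RPM in Ajuba OE. All shAjuba1 samples were above shScrambled, with replicate 3 far above the others, and the shAjuba2 samples lay on both sides of shScrambled. Neither the comparisons with shScrambled and Control nor that between the knockdown lines called CLDN3 (edgeR). Its log2 fold change was 0.53 in shAjuba1 (SE 0.212, edgeR adjusted p = 0.0658), -0.12 in shAjuba2 (SE 0.322, adjusted p = 0.85) and 0.24 in Ajuba OE (SE 0.147, adjusted p = 0.455). Without replicate 2 it was 0.13 in shAjuba2 (SE 0.189, edgeR adjusted p = 0.663) and 0.27 in Ajuba OE (SE 0.173, adjusted p = 0.385). Against Parental it rose in shAjuba1 by 1.01 (SE 0.268, edgeR adjusted p = 0.0114).

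CLDN1, a sealing claudin best known from the skin barrier, lies on chromosome 3 from 190305707 to 190322446 on the minus strand. It stood at 33.0 and 36.8 RPM in Parental, at 59.9 and 57.9 RPM in shScrambled, at 28.9, 30.03 and 23.7 RPM in shAjuba1 and at 59.9, 41.9 and 56.1 RPM in shAjuba2. It stood at 32.6, 22.5 and 29.0 RPM in Control and at 26.7, 18.4 and 27.0 RPM in Ajuba OE. The shScrambled and shAjuba2 lines thus stood above all others, and shAjuba1 lay near the Control line. CLDN1 fell in shAjuba1 by 1.11 on the log2 scale against shScrambled (SE 0.108, edgeR adjusted p = 5.68e-06) and by 0.37 against Parental (SE 0.114, adjusted p = 0.0242). In shAjuba2 the log2 fold change was -0.21 against shScrambled (SE 0.155, edgeR adjusted p = 0.428) and 0.53 against Parental (SE 0.167, adjusted p = 0.0868). In Ajuba OE it was -0.16 (SE 0.185, edgeR adjusted p = 0.713). Without replicate 2 it was -0.08 in shAjuba2 against shScrambled (SE 0.094, edgeR adjusted p = 0.573) and -0.15 in Ajuba OE (SE 0.105, adjusted p = 0.432).

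The difference of CLDN1 between the knockdown lines was tested directly, since both had been compared with the same shScrambled samples. CLDN1 was lower in shAjuba1 than in shAjuba2 by a log2 fold change of -0.88 (SE 0.154, edgeR adjusted p = 0.00377), and it was called in all 12 alternatives. It was the 1 gene of the 9 called in this comparison, where 19.6% of all genes tested were called, 9.47% higher and 10.1% lower in shAjuba1. CLDN7 differed by -0.45 (SE 0.150, edgeR adjusted p = 0.0598) and by -0.61 without replicate 2 of shAjuba2 (SE 0.097, adjusted p = 0.000605).

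CLDN2 forms a pore for cations and water and lies on chromosome X from 106900164 to 106930861. It stood at 0.474 and 0.280 RPM in Parental, at 0.549 and 0.755 RPM in shScrambled, at 0.398, 0.332 and 0.304 RPM in shAjuba1 and at 0.387, 0.248 and 0.247 RPM in shAjuba2. It stood at 0.641, 0.490 and 0.592 RPM in Control and at 0.947, 0.542 and 0.754 RPM in Ajuba OE. Both knockdown lines lay below shScrambled in every sample and overlapped with Parental. CLDN2 fell in shAjuba1 by 0.93 on the log2 scale (SE 0.309, edgeR adjusted p = 0.0300). That call was lost without shScrambled replicate 1 or 2 (adjusted p = 0.0513 and 0.298) and without shAjuba1 replicate 2 (0.0588), and against Parental the log2 fold change was -0.10 (SE 0.363, edgeR adjusted p = 0.854). In shAjuba2 it was -1.21 (SE 0.332, edgeR adjusted p = 0.0697), or -1.12 (SE 0.367, adjusted p = 0.0369) without replicate 2, and in Ajuba OE it was 0.46 (SE 0.264, adjusted p = 0.419), or 0.53 (SE 0.309, adjusted p = 0.348) with replicate 2 of both lines left out. These values rest on few counts.

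CLDN12, which lacks the PDZ-binding tail by which most claudins attach to ZO proteins, lies on chromosome 7 from 90383721 to 90513402. It stood at 75.2 and 78.5 RPM in Parental, at 86.8 and 81.3 RPM in shScrambled, at 51.9, 54.4 and 44.5 RPM in shAjuba1 and at 59.7, 46.7 and 57.0 RPM in shAjuba2. It stood at 89.3, 59.6 and 69.6 RPM in Control and at 77.3, 55.6 and 66.3 RPM in Ajuba OE. Every knockdown sample was below every Parental and shScrambled sample, whereas Ajuba OE and Control overlapped. CLDN12 was the 1 gene of the 9 called in both knockdown lines. It fell by 0.76 on the log2 scale in shAjuba1 (SE 0.10, edgeR adjusted p = 7.63e-05) and by 0.68 in shAjuba2 (SE 0.130, adjusted p = 0.0236). Against Parental it fell by 0.64 (SE 0.098, edgeR adjusted p = 0.000421) and 0.56 (SE 0.131, adjusted p = 0.0469). In shAjuba2 the call was lost without shScrambled replicate 1 (-0.62, edgeR adjusted p = 0.260), shScrambled replicate 2 (-0.73, 0.203) or shAjuba2 replicate 1 (-0.72, 0.0768), whereas without shAjuba2 replicate 2 the log2 fold change was -0.59 (SE 0.094, adjusted p = 0.000303). In Ajuba OE it was -0.07 (SE 0.171, edgeR adjusted p = 0.870), or -0.10 (SE 0.132, adjusted p = 0.700) with replicate 2 of both lines left out.

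OCLN encodes occludin, a tetraspan protein of the strands, on chromosome 5 from 69492292 to 69558104. It stood at 15.9 and 18.2 RPM in Parental, at 17.2 and 16.7 RPM in shScrambled, at 13.7, 13.4 and 12.1 RPM in shAjuba1 and at 14.9, 9.53 and 13.4 RPM in shAjuba2. It stood at 20.8, 15.4 and 15.6 RPM in Control and at 24.1, 16.9 and 25.7 RPM in Ajuba OE. All knockdown samples were below all Parental and shScrambled samples. OCLN fell in shAjuba1 by 0.39 on the log2 scale (SE 0.104, edgeR adjusted p = 0.0103), a call lost without shScrambled replicate 1 (-0.35, adjusted p = 0.112) or 2 (-0.42, adjusted p = 0.0597). The log2 fold change was -0.48 in shAjuba2 (SE 0.183, edgeR adjusted p = 0.149) and 0.43 in Ajuba OE (SE 0.184, adjusted p = 0.265). Without replicate 2 it was -0.33 in shAjuba2 (SE 0.116, edgeR adjusted p = 0.0543) and 0.51 in Ajuba OE (SE 0.144, adjusted p = 0.0668).

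F11R encodes junctional adhesion molecule A, an immunoglobulin protein that recruits polarity proteins to young junctions, on chromosome 1 from 160995211 to 161021343 on the minus strand. It stood at 22.1 and 23.3 RPM in Parental, at 19.2 and 18.0 RPM in shScrambled, at 14.1, 14.7 and 13.2 RPM in shAjuba1 and at 15.2, 9.33 and 12.7 RPM in shAjuba2. It stood at 23.7, 18.5 and 23.6 RPM in Control and at 28.6, 22.2 and 23.4 RPM in Ajuba OE. All knockdown samples were below all shScrambled and Parental samples. F11R fell in shAjuba1 by 0.42 on the log2 scale (SE 0.102, edgeR adjusted p = 0.00569), a call lost without shScrambled replicate 1 (-0.36, adjusted p = 0.0946). Its log2 fold change was -0.63 in shAjuba2 (SE 0.191, edgeR adjusted p = 0.0864), or -0.48 (SE 0.121, adjusted p = 0.0100) without replicate 2, and 0.24 in Ajuba OE (SE 0.137, adjusted p = 0.429), or 0.19 (SE 0.115, adjusted p = 0.371) with replicate 2 of both lines left out. Against Parental it fell by 0.73 in shAjuba1 (SE 0.099, edgeR adjusted p = 0.000181) and by 0.94 in shAjuba2 (SE 0.192, adjusted p = 0.0345).

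TJP1 encodes ZO-1, the scaffold that binds claudin tails, on chromosome 15 from 29699367 to 29968915 on the minus strand. It stood at 231.3 and 231.5 RPM in Parental, at 194.5 and 189.2 RPM in shScrambled, at 171.8, 173.7 and 172.2 RPM in shAjuba1 and at 206.1, 171.0 and 196.1 RPM in shAjuba2. It stood at 234.5, 199.99 and 214.0 RPM in Control and at 199.0, 174.8 and 224.6 RPM in Ajuba OE. TJP1 was called in none of the comparisons with shScrambled or Control (edgeR). Its log2 fold change was -0.17 in shAjuba1 (SE 0.075, edgeR adjusted p = 0.0960), -0.05 in shAjuba2 (SE 0.126, adjusted p = 0.818) and -0.05 in Ajuba OE (SE 0.121, adjusted p = 0.869). With replicate 2 left out it was 0.0066 in shAjuba2 (SE 0.096, edgeR adjusted p = 0.973) and -0.04 in Ajuba OE (SE 0.110, adjusted p = 0.883). Against Parental it fell in shAjuba1 by 0.45 (SE 0.069, edgeR adjusted p = 0.000403).

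In shAjuba1 against shScrambled 7 of the 9 genes were called, 1 higher and 6 lower, where 38.4% of all genes tested were called, 18.2% higher and 20.2% lower. The median log2 fold change was -0.42 over the 9 genes and -0.01 over all genes tested. With shScrambled replicate 1 left out 3 of the 9 genes were called (CLDN1, CLDN7 and CLDN12), where 20.8% of all genes were called, and with shScrambled replicate 2 left out 5 were called, where 23% of all genes were called. In shAjuba2 1 of the 9 genes was called and it was lower, where 7.63% of all genes were called, 3.19% higher and 4.44% lower. The median was -0.33, against -0.01 over all genes tested. Without replicate 2 of shAjuba2 3 genes were called, all lower (CLDN2, CLDN12 and F11R), where 22.7% of all genes were called, 10.9% higher and 11.8% lower. In Ajuba OE 1 gene was called and it was higher, where 5.43% of all genes were called, 2.39% higher and 3.03% lower. The median was 0.24, against -0.01 over all genes tested. With replicate 2 of Control and Ajuba OE left out 2 genes were called, both higher (CLDN4 and CLDN7), where 8.18% were called, 4.21% higher and 3.97% lower. In bulk RNA a lower level in every cell and fewer cells that carry the transcript cannot be told apart.

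**Figure D3:**
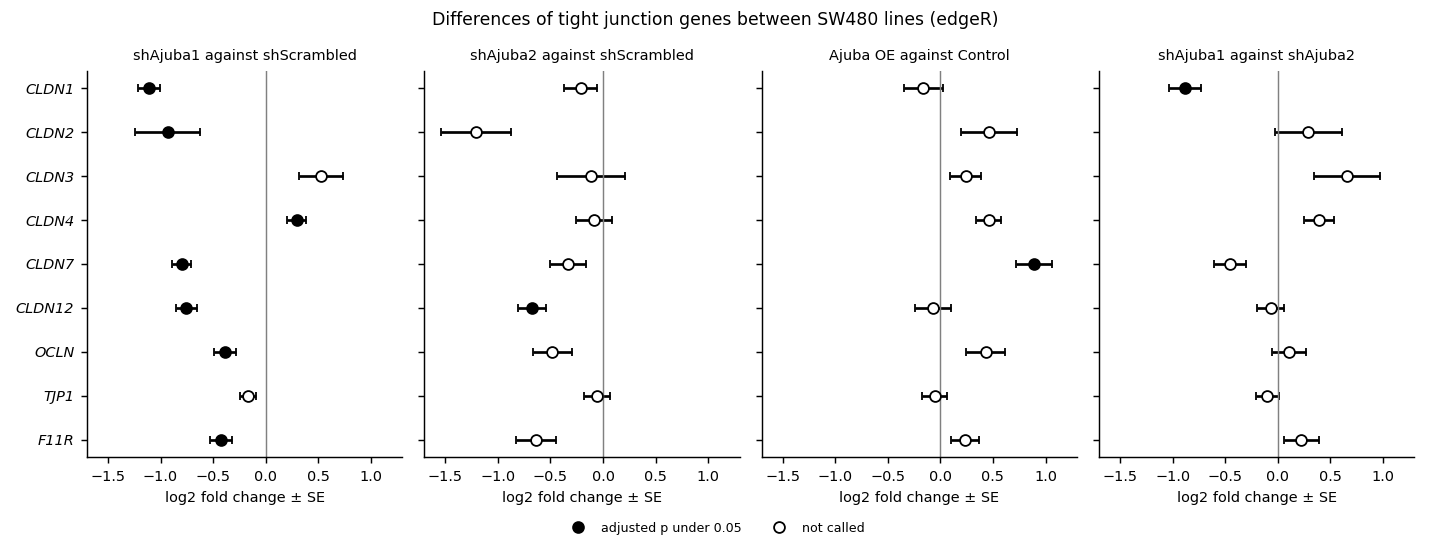
log2 fold change with its SE (edgeR) of the 9 genes in the 4 comparisons of 2 lines, filled where the adjusted p over all genes was under 0.05. In shAjuba1 against shScrambled 7 points are filled and 6 of them lie left of 0, and each of the other panels has 1 filled point, for CLDN12, CLDN7 and CLDN1.

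The choice of control line bore on several of these genes, since the lines without a change of Ajuba differed among themselves. CLDN1 was the 1 gene of the 9 called across Parental, shScrambled and Control (edgeR F test, adjusted p = 0.00805), where 10.9% of all genes tested were called. Its line means were 34.9 ± 2.65 (SD, n = 2), 58.9 ± 1.42 (n = 2) and 28.0 ± 5.11 RPM (n = 3). The call was lost without shScrambled replicate 1 or 2 (edgeR adjusted p = 0.0828 and 0.0785), and with Control replicate 1 or 2 left out 2 and 6 of the 9 genes were called, where 13.7% and 29% of all genes were called. CLDN7 (edgeR adjusted p = 0.0515) and CLDN4 (0.0657) came next, both with shScrambled as the lowest of the 3 lines. Against Parental 7 of the 9 genes were called in shAjuba1, where 38.1% of all genes were called. They were CLDN1, CLDN7, CLDN12, OCLN, TJP1 and F11R, all lower, and CLDN3, which was higher. In shAjuba2 3 genes were called against Parental, where 8.14% of all genes were called, and CLDN7 fell by 0.97 (SE 0.175, edgeR adjusted p = 0.0262), together with CLDN12 and F11R. In Ajuba OE CLDN7 alone of the 9 was called against Parental, where 7.15% of all genes were called. The comparisons with shScrambled share its 2 samples, and those with Parental share the 2 Parental samples.

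**Figure D4:**
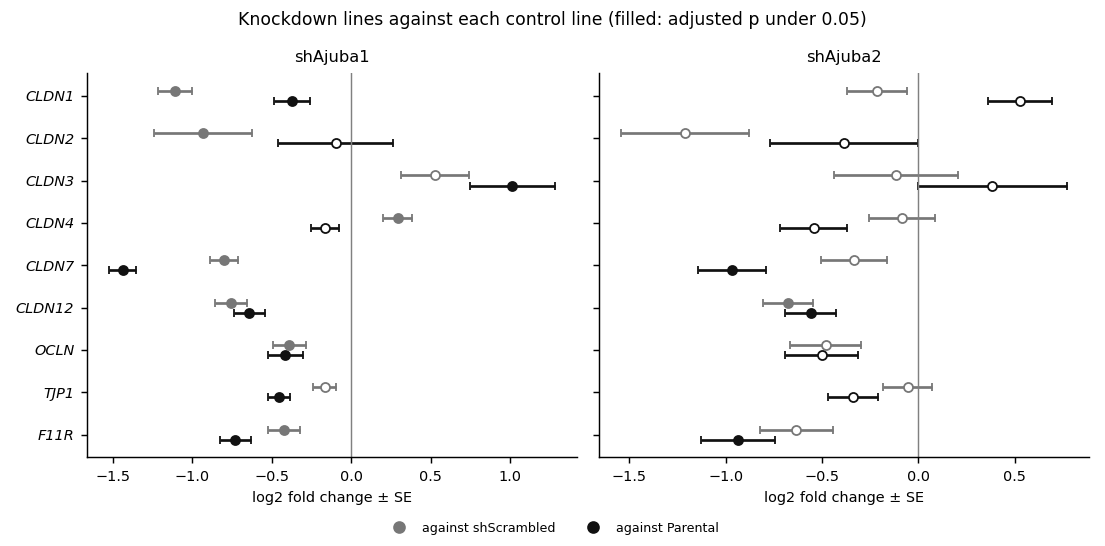
log2 fold change with its SE (edgeR) of the 9 genes in shAjuba1 and shAjuba2, once against shScrambled and once against Parental, filled where the adjusted p was under 0.05. CLDN2, CLDN7, CLDN12, OCLN, F11R and TJP1 lie left of 0 against either control in both knockdown lines. For CLDN2 in shAjuba1 against Parental and TJP1 in shAjuba2 against shScrambled the SE reaches across 0. In contrast CLDN4 in shAjuba1 and CLDN1 and CLDN3 in shAjuba2 lie on different sides of 0.

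The mixture of these 6 claudins differed between lines. Other claudins of SW480 are not part of it, such as CLDN11, which was picked after its values were seen. CLDN11 stood at 31.8 ± 1.15 RPM per kb in shScrambled (SD, n = 2), 19.0 ± 0.315 in shAjuba1 (n = 3), 30.4 ± 4.55 in shAjuba2 (n = 3), 20.2 ± 3.12 in Control (n = 3) and 13.4 ± 2.04 in Ajuba OE (n = 3). In Parental it stood at 29.9 ± 1.87 RPM per kb (n = 2). CLDN11 fell in shAjuba1 against shScrambled (log2 fold change -0.75, SE 0.077, edgeR adjusted p = 8.65e-06). It also differed among Parental, shScrambled and Control (edgeR F test, adjusted p = 0.0289), and the Control mean lay near that of shAjuba1. The summed level of the 6 claudins was 79.3 ± 5.55 RPM per kb in Parental (SD, n = 2), 71.2 ± 1.08 in shScrambled (n = 2), 55.4 ± 3.06 in shAjuba1 (n = 3) and 60.9 ± 11.8 in shAjuba2 (n = 3). It was 72.5 ± 8.31 in Control (n = 3) and 100.1 ± 17.4 RPM per kb in Ajuba OE (n = 3). CLDN7 made up 38.6% to 39.4% of that sum in Parental, 28.0% to 28.3% in shScrambled, 20.5% to 21.5% in shAjuba1 and 26.5% to 28.0% in shAjuba2. Its share was 37.3% to 40.1% in Control and 48.0% to 51.1% in Ajuba OE, so that the samples of shAjuba1 held the lowest and those of Ajuba OE the highest shares of all. CLDN1 went from 6.25% to 7.17% in Ajuba OE to 22.2% to 23.4% in shScrambled and 23.1% to 24.5% in shAjuba2. CLDN4 made up 38.1% to 40.2% in shAjuba1 and no more than 33.6% in any sample of another line.

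Replicate 2 of shAjuba2, with its low levels, had CLDN7 and CLDN4 shares between those of the other replicates of its line. Replicate 2 of Control and of Ajuba OE had the lowest CLDN7 share (37.3% and 48.0%) of its line. It also had the highest CLDN4 share (33.6% and 31.3%). The ratio of CLDN1 to CLDN7 counts was 1.25 to 1.33 in shAjuba2, 0.384 to 0.412 in Control and 0.182 to 0.204 in Ajuba OE. It was 0.446 to 0.460 in Parental, 1.14 to 1.22 in shScrambled and 0.768 to 1.05 in shAjuba1. No 2 lines overlapped in this ratio, which does not depend on library size. Only this ratio and that of CLDN4 to CLDN7 were worked out. How many other pairs of genes part all lines is therefore not known. The ratio of CLDN4 to CLDN7 counts did not part all lines. In Control it ran from 1.34 to 1.70, across both Parental samples (1.45 and 1.47). It overlapped with shScrambled too (1.57 and 1.74).

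**Figure D5:**
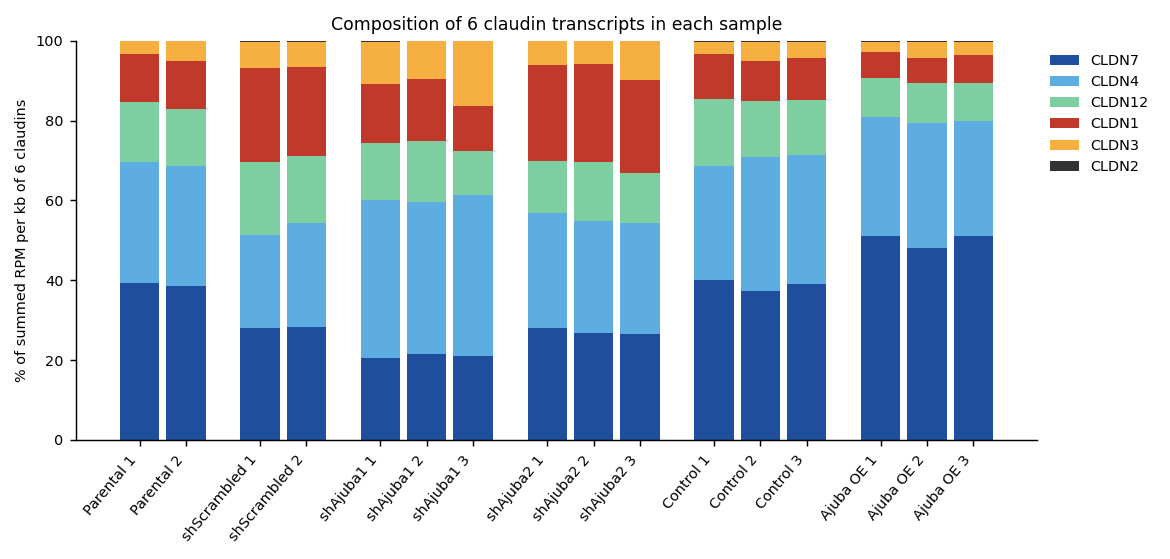
Share of each of 6 claudins in their summed RPM per kb, in % on a linear axis, with 1 bar for each of the 16 samples. The CLDN7 part is smallest in shAjuba1 and largest in Ajuba OE, the CLDN1 part is largest in shScrambled and shAjuba2, and bars of the same line look alike.

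Other genes of the tight junction were taken from a list of 57. In shAjuba1 23 of the 46 that could be tested were called, 9 higher and 14 lower, where 38.4% of all genes tested were called, 18.2% higher and 20.2% lower. The list had a median of -0.14 on the log2 scale, against -0.01 over all genes tested. Among them ILDR2, an angulin of the corners where 3 cells meet, fell from 27.9 to 28.3 RPM in shScrambled to 8.69 to 9.72 RPM (log2 fold change -1.62, SE 0.10, edgeR adjusted p = 1.34e-07). ILDR2 differed among the control lines as well (edgeR F test, adjusted p = 0.00206), and its Parental samples lay below those of shScrambled. CGNL1, a cytoplasmic partner of ZO-1, fell from 3.10 to 3.22 RPM to 0.481 to 0.80 RPM (-2.35, SE 0.207, edgeR adjusted p = 2.54e-06). It also differed among the control lines (edgeR F test, adjusted p = 0.000191), with 2.54 to 2.97 RPM in Parental and 0.342 to 0.408 RPM in Control. CLDN16, a low claudin of magnesium transport, fell in shAjuba1 too (-1.43, SE 0.480, edgeR adjusted p = 0.0323). CLDN19 (1.86, SE 0.510, edgeR adjusted p = 0.0117), CLDN15, a cation pore of the intestine (0.69, SE 0.116, adjusted p = 0.000475), and YBX3, a transcription factor that binds ZO-1 (0.58, SE 0.089, adjusted p = 0.000244), rose. The CLDN16 and CLDN19 values stayed below 0.7 RPM, and their calls were lost when either shScrambled sample was left out.

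In shAjuba2 4 of 47 were called, 1 higher and 3 lower, a share close to the 7.63% of all genes tested (3.19% higher, 4.44% lower), with a median log2 fold change below 0.01 in size. CGNL1 (-1.97, SE 0.217, edgeR adjusted p = 0.00311), ILDR2 (-0.98, SE 0.125, adjusted p = 0.00539) and RAB13, a GTPase of junction traffic (-0.74, SE 0.156, adjusted p = 0.0321), fell. CLDN19 rose (2.73, SE 0.402, edgeR adjusted p = 0.00941). ILDR2 was 13.8 to 16.2 RPM in shAjuba2 and 14.1 to 16.6 RPM in Parental, and against Parental its log2 fold change was -0.13 (edgeR adjusted p = 0.541).

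In Ajuba OE 5 of 46 were called, 2 higher and 3 lower, where 5.43% of all genes tested were called, 2.39% higher and 3.03% lower. The median was -0.06, against -0.01 over all genes tested. The angulins ILDR1 (0.97, SE 0.137, edgeR adjusted p = 0.00735) and LSR (0.46, SE 0.103, adjusted p = 0.0464) rose, and the angulin ILDR2 fell (-1.09, SE 0.12, adjusted p = 0.00235). CGN, the cingulin that links ZO-1 to the cytoskeleton, fell (-0.78, SE 0.165, edgeR adjusted p = 0.0370), as did PALS1, a scaffold of the Crumbs polarity complex (-0.64, SE 0.134, adjusted p = 0.0367). The calls of LSR, CGN and PALS1 were lost in 5 of the 6 fits that left out 1 sample. ILDR1 was 3.28 to 4.21 RPM in Control and 6.76 to 6.92 RPM in Ajuba OE.

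Of 8 transcription factors known for claudin genes, ZEB1 was called in all 3 comparisons with a control line. It stood at 18.5 and 21.3 RPM in shScrambled, at 28.8 to 31.4 RPM in shAjuba1 and at 32.5 to 36.3 RPM in shAjuba2, and it rose in both (log2 fold change 0.57, SE 0.101, edgeR adjusted p = 0.000698, and 0.73, SE 0.136, adjusted p = 0.0210). It stood at 16.1 to 18.6 RPM in Control and at 10.6 to 12.0 RPM in Ajuba OE, where it fell (-0.54, SE 0.104, edgeR adjusted p = 0.0255). In the same 3 comparisons CLDN7 had log2 fold changes of -0.80, -0.33 and 0.89, of which the second did not pass the test. CLDN4, with no E-box match, was called higher in shAjuba1 (0.29), where ZEB1 rose too. Whether ZEB1 acts on any of these genes was not tested. CDX2, an intestinal factor, rose in Ajuba OE from 15.5 to 17.8 RPM to 22.2 to 26.8 RPM (0.64, SE 0.109, edgeR adjusted p = 0.0165).

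HNF4A fell in shAjuba1 (-0.54, SE 0.102, edgeR adjusted p = 0.00112) and shAjuba2 (-0.49, SE 0.113, adjusted p = 0.0409). Both values rest on the same shScrambled samples, and HNF4A differed among Parental, shScrambled and Control (edgeR F test, adjusted p = 0.00476). CDX2 differed among these lines as well (edgeR F test, adjusted p = 0.00805), with 16.9 and 19.2 RPM in Parental and 10.2 and 9.56 RPM in shScrambled. GRHL2, which stayed below 0.6 RPM, fell in shAjuba1 (-1.04, SE 0.347, edgeR adjusted p = 0.0318). SNAI1 and SNAI2 were called in no comparison with a control line (edgeR adjusted p 0.0579 to 0.834), and ZEB2 stayed at or below 0.0249 RPM and was not tested.

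The genes most like each of the 9 were sought by Pearson's r of log2 CPM over the 16 samples, among 10052 protein-coding genes (10053 for CLDN2 and CLDN3). Samples of 1 line share their cells, so r is a description and carries no p. CLDN7 was most like MAP7 and EPAS1 (both r = 0.983), F11R like SLC27A2 (0.988) and NFE2L2 (0.966), and CLDN12 like ADD3 (0.984) and TMEM167B (0.983). CLDN1 was most like GPC4 (0.960) and FHIP2A (0.946), CLDN4 like RCN1 (0.956) and MEX3C (0.947), and OCLN like PCGF5 (0.952) and TASP1 (0.943). TJP1 was most like VPS41 (0.942) and VAPB (0.916), CLDN2 like MCOLN2 (0.912) and ARFGEF3 (0.868), and CLDN3 like LARP6 (0.906) and TGFB1 (0.879).

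Among the 9 genes themselves OCLN and F11R (r = 0.902), CLDN7 and F11R (0.891) and CLDN7 and OCLN (0.885) went together most closely. CLDN1 went against CLDN4 (-0.62) and lay between -0.33 and 0.24 with the other 7 genes. CLDN3 was negative with every gene but CLDN1 (0.09). These values too describe 16 samples of 6 lines.

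Shared exons add some uncertainty to the counts. F11R shares 36.6% of its exon bases with a readthrough gene on the same strand, which itself held 20 to 64 counts against 414 or more for F11R. The sources used here do not say whether reads in the shared bases were counted for either gene. The RPM per kb of F11R, taken over all its exon bases, is uncertain for that reason. CLDN12 shares 7.9% and 5.5% with 2 genes at 0 counts, 5.2% with GTPBP10 (1333 to 4481 counts) and 3.0% with CDK14 (7 to 155 counts), and CLDN7 shares 10.8% with a gene at 0 or 1 count. The strand option of the counting was not given in the sources used here, so reads of CLDN7 and of ELP5 on the other strand (1.5% of its exon bases) cannot be told apart if strand was not used.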

How the data were processed

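RNA-seq of 16 samples from 6 SW480 lines was analysed. The authors prepared stranded mRNA libraries, sequenced read pairs, aligned them to GRCh38 with HISAT2 and counted reads per gene with featureCounts, and the deposited values are raw counts without normalization. Samples were grouped by line as their titles give it. Genes were matched by identifier to GENCODE release 44, which holds 56434 of the 66023 genes and 99.8% of all counts.

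The counts were fitted with edgeR 4.0.16 in R 4.3.3 on the lines compared alone, with filterByExpr, TMM and the quasi-likelihood test (two-sided). A gene was called at a Benjamini-Hochberg adjusted p under 0.05 over all genes tested. The SE was taken as the size of the log2 fold change over the root of the F statistic. DESeq2 1.42.0, other normalizations, no filter, a fit on all 16 samples, the replicate number as a block, Parental as the control and leaving out each sample were alternatives. The test recovered the changes put into simulated counts of genes with high counts. The simulation used the same spread for every gene and no shifted replicate. It therefore does not show how the test performs on these samples or on genes with few counts. log2 CPM used a prior count of 2. Figures were drawn with matplotlib 3.10.9 (Python 3.11.15).

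The 9 genes and the gene lists were chosen with earlier results of these data known. The genes named are the 9, AJUBA, the transcription factors, the 3 called tight junction genes with the highest and the 3 with the lowest log2 fold change in each comparison of 2 lines, and the 2 genes most like each of the 9 (mean log2 CPM of at least 3). The result of 1 transcription factor is not reported here. Replicates of a line differed by more than counting noise in all 14 pairs (median chi-square over genes 1.87 to 14.3 times that of counting alone). Depth limits CLDN2 above all.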

Additional observations from a re-analysis of the deposited data

Results flagged for a closer look

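The effects of the 2 shRNAs, each set against the same shScrambled samples, differed for CLDN1 when the knockdown lines were compared directly (log2 fold change of shAjuba1 over shAjuba2 -0.88, SE 0.154, edgeR adjusted p = 0.00377). Every shAjuba1 sample (23.7 to 30.03 RPM) was below every shAjuba2 sample (41.9 to 59.9 RPM). The same test called 11 of 47 other tight junction genes, 3 higher and 8 lower in shAjuba1, where 19.6% of all genes tested were called. The 3 with the highest and the 3 with the lowest log2 fold change are named here. CLDN24 (-1.71), PARD6G (-0.99) and ILDR1 (-0.73) were lower in shAjuba1, and YBX3 (0.65), RAB13 (0.48) and PARD3 (0.45) were higher, with edgeR adjusted p between 0.00116 and 0.0341. ILDR2, named for the other comparisons, was lower as well (-0.62, SE 0.125, edgeR adjusted p = 0.00803). CLDN24 stayed below 0.6 RPM, and its call was lost without shAjuba1 replicate 1 or 3 (adjusted p = 0.130 and 0.110). The calls of ILDR1 and PARD3 were lost in 4 and that of RAB13 in 3 of the 6 fits that left out 1 sample. No line has enough samples for a test of a single outlying sample.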

How the results depend on the processing

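Of the 9 genes, the number called in shAjuba1 against shScrambled (7) was 3 in the fit on all 16 samples, 6 with DESeq2, and 3 to 7 with 1 sample left out. In shAjuba2 (1) it was 3 with no filter, in the fit on all 16 samples and with Parental as the control, and 0 to 3 with 1 sample left out. In Ajuba OE (1) it was 2 with DESeq2, with no filter, in the fit on all 16 samples and with replicates 1 and 3 alone, and 0 to 2 with 1 sample left out. Between the knockdown lines (1) it was 2 with library size alone, 3 with no filter and in the fit on all 16 samples, and 1 to 2 with 1 sample left out. Across the 3 control lines (1) it was 2 with library size alone, 3 with DESeq2, 4 with no filter and 0 to 6 with 1 sample left out. Across all 6 lines (9) it was 7 to 9 under the alternatives. The cause of these differences was not tested. The share of all genes called is not given for DESeq2, library size alone, no filter, the fit on all 16 samples or most fits without 1 sample. For these settings the counts cannot be read as a result about the 9 genes.

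With the replicate block the counts of called genes, in the same order, were 6, 3, 4, 2, 0 and 9. The share of all genes called is not given for this setting either, so these counts have the same limit. Same-numbered samples deviated together for replicate 2 of Control and Ajuba OE (r = 0.616) but not for replicate 3 (-0.05), so the numbers were not taken as pairs.

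The sign of the log2 fold change turned in 1 of 122 alternative values of called genes, CLDN4 in shAjuba1 (-0.17 against Parental), and in 12 of 328 values of genes not called. In shAjuba2 CLDN1 (0.53) and CLDN3 (0.39) turned against Parental, and with 1 sample left out CLDN3 ranged from -0.49 to 0.13, CLDN4 from -0.17 to 0.058 and TJP1 from -0.085 to 0.0066. With 1 sample left out CLDN12 ranged from -0.20 to 0.10 and TJP1 from -0.14 to 0.023 in Ajuba OE, and CLDN12 from -0.16 to 0.023 and OCLN from -0.053 to 0.22 between the knockdown lines. With the length of the longest coding transcript CLDN12 (18.5 RPM per kb) moved above CLDN1 (10.6), and the other places in the order stayed.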
